A study of Arabidopsis thaliana with 17 samples.

Results

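The 5 genes described here, XTH16, XTH18, XTH19, XTH32 and XTH33, encode xyloglucan endotransglucosylase/hydrolases of Arabidopsis thaliana and were taken by name, through the platform annotation, from the 22746 probe sets tested on each array. Each gene had 1 probe set, and the genes were chosen with earlier results of these data known. They are 5 of the 10 XTH genes, out of 33 in the family list, that had a probe set assigned to 1 gene, and 5 of 13286 named loci in all. Xyloglucan is a hemicellulose that coats and links cellulose microfibrils in the primary cell wall. XTH enzymes cut its backbone and rejoin the cut end to another xyloglucan chain, or hydrolyse it, and they act both when walls loosen during growth and when walls are reinforced. Salicylic acid (SA) is a hormone of plant immunity that acts largely through the co-activator NPR1, with SNI1 as a repressor of SA-responsive genes.

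Expression was measured on 17 Affymetrix arrays from 3-week-old soil-grown plants that the labels call seedlings, sampled 16 hours after 0.5 mM SA or water. The npr1 sni1 brca2a triple mutant (the brca2a triple) had 3 arrays after SA and 3 after water, and so had the npr1 sni1 double mutant (the double), to which it is compared. The npr1 sni1 ssn2 triple mutant (the ssn2 triple) had 2 arrays after SA and 3 after water. Every plant carried npr1 and sni1, so no group has wild-type SA signalling and none of these samples is wild type. BRCA2A takes part in homologous recombination, and SSN2 is named as a suppressor of sni1. The series compared SA with water in each genotype to ask how BRCA2A and SSN2 bear on defence gene expression.

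Values are linear probe set intensities. Array medians lay between 57.2 and 61.9, and the number of arrays limits the precision. The 12 arrays of the brca2a triple and the double stand in 1 deposited table and the 5 ssn2 arrays in another. The 2 may have been normalized separately, so tests stay within a table. Double, water replicate 2 stood apart: it correlated with water replicates 1 and 3 at 0.981 and 0.980 across probe sets, against 0.997 between those. Values without it are given for the SA effects of the 5 genes and for part of the other calls, counts and directions that differ. None of BRCA2A, SSN2, NPR1 and SNI1 had a one-gene probe set, so the mutations themselves were not checked. Of the tissue markers, the green tissue genes RCA and LHCB4.1 were among the brightest probe sets on every array, above the 99th percentile, and the root gene PYK10 lay between the 89.3rd and 95.3rd percentile. The root hair expansin genes EXPA7 and EXPA18 lay between the 26.7th and 39.8th. In these whole-plant samples, fewer cells of a type and less RNA per cell cannot be told apart.

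Fold changes are differences of log2(intensity + 16) with the standard error of the limma fit; the offset of 16 understates changes of dim probe sets. Adjusted p-values are limma's, with Benjamini-Hochberg adjustment over all 22746 probe sets of a comparison, and the threshold was 0.05, two-sided. SA raised 4 of the 5 genes in the double (XTH18, XTH33, XTH19 and XTH16), where 4.94% of all probe sets were called higher. In the brca2a triple 2 of the 5 rose (XTH33 and XTH16), where 2.61% of all were called higher. In the ssn2 triple XTH16 rose, where 18.8% of all were called higher, and XTH32 and XTH19 fell, where 14.5% were called lower. Because the 5 genes were chosen with earlier results of these data known, these counts may partly follow from the choice. Over all 10 measured XTH genes 4 were called higher in the double and 2 in the brca2a triple. In the ssn2 triple 1 of the 10 was called higher and 2 lower. The median of the 5 SA effects was 0.16 in the brca2a triple and 0.65 in the double, against -0.02 and -0.01 over all probe sets. For the ssn2 triple it was -0.06, against 0.0016. GRX480 and WRKY53 served as a check of the SA response. Both were called higher after SA in the double (2.46 and 1.93). Neither was called in the brca2a triple (0.11 and 0.0089) or in the ssn2 triple (0.11 and 0.17). The difference, brca2a triple minus double, was called lower for both (-2.35 and -1.92), where 1.54% of all probe sets were.

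**Figure D1:**
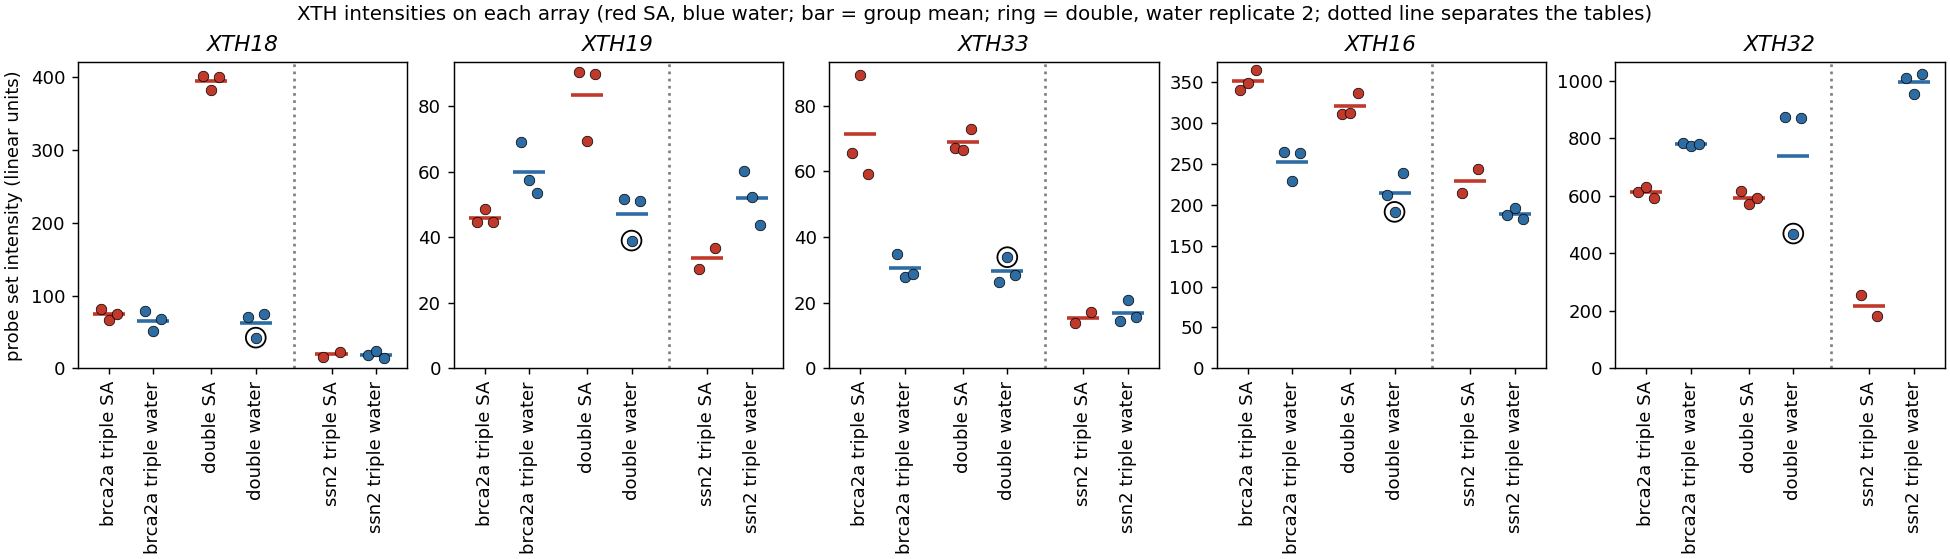
Probe set intensity (linear units, y axis from 0) of each gene on all 17 arrays; points are arrays, red after SA and blue after water, bars are group means, and the ring marks double, water replicate 2. XTH18 lay between 382 and 402 on the SA arrays of the double and at or below 81.5 on all other arrays, and XTH32 fell to 183 and 254 on the SA arrays of the ssn2 triple, against 953 to 1022 on its water arrays.

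XTH18 (AT4G30280, chromosome 4, probe set 253628_at), known as a gene of the root-expressed branch of the family, was the gene of the 5 with the largest SA effect in the double. In the brca2a triple it had intensities of 81.5, 67.0 and 74.6 after SA, against 78.8, 50.6 and 67.3 after water. In the double it had 402, 382 and 400.5 after SA, against 70.0, 42.2 and 74.5 after water. The 3 SA arrays of the double thus stood far above the other 9 arrays, which overlapped each other across their 3 groups. The SA effect was 0.16 ± 0.16 in the brca2a triple (3 arrays against 3, adjusted p = 0.63, 95% interval -0.21 to 0.52) and 2.42 ± 0.16 in the double (5.35-fold, adjusted p = 8.7e-06). In the double this was the 29th largest increase of the 22746 probe sets.

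The difference between these SA effects, brca2a triple minus double, was -2.26 ± 0.23 (12 arrays, adjusted p = 0.00051), the 42nd most negative of all probe sets. After SA, XTH18 differed by -2.19 ± 0.16 between the brca2a triple and the double and was lower in the brca2a triple (adjusted p = 2.4e-05); all 3 arrays of the brca2a triple lay below all 3 of the double, as did 10.8% of all probe sets. In water the genotypes differed by 0.07 ± 0.16 (adjusted p = 0.89, 95% interval -0.29 to 0.44), and by -0.13 without double, water replicate 2 (0.75). Without double, water replicate 2, whose 42.2 was the lowest of these values, the SA effect in the double was 2.22 (adjusted p = 7.4e-07) and the difference -2.06 (5.3e-05).

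XTH18 in the ssn2 triple had intensities of 16.1 and 22.8 after SA, against 17.7, 23.7 and 13.6 after water, which overlap. The SA effect was 0.05 ± 0.14 (2 arrays against 3, adjusted p = 0.85, 95% interval -0.29 to 0.39). These values lay between the 24.95th and 35.1st percentile of their arrays, while the water arrays of the brca2a triple and the double lay between the 44.0th and 55.2nd. Genotype and table cannot be told apart in that gap.

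XTH19 (AT4G30290, chromosome 4, probe set 253608_at) is annotated next to XTH18, with 0 protein-coding genes between them, and is a close paralog of it. How far the transcript of one is detected by the other's probe set was not tested. In the brca2a triple it had intensities of 44.6, 48.7 and 44.8 after SA, against 69.1, 57.5 and 53.4 after water. In the double it had 90.5, 69.6 and 90.01 after SA, against 51.7, 39.0 and 51.1 after water. SA and water arrays did not overlap in either genotype, but they were ordered in opposite ways: the SA arrays were the lower ones in the brca2a triple and the higher ones in the double. Of all probe sets, 16.9% had every SA array below every water array in the brca2a triple, and 10.4% had every SA array above in the double.

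The SA effect on XTH19 was -0.29 ± 0.11 in the brca2a triple, which did not pass (3 arrays against 3, adjusted p = 0.17), and SA raised it by 0.65 ± 0.11 in the double (1.57-fold, adjusted p = 0.0044). The difference of -0.94 ± 0.16 passed (12 arrays, adjusted p = 0.01). After SA, XTH19 differed by -0.67 ± 0.11 between the brca2a triple and the double (adjusted p = 0.005), again with no overlap. In water it differed by 0.27 ± 0.11, which did not pass (adjusted p = 0.4), with all 3 arrays of the brca2a triple above all 3 of the double, as in 9.3% of all probe sets. Without double, water replicate 2 the SA effect in the double was 0.55 (adjusted p = 0.0033) and the difference -0.84 (0.006).

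XTH18 and XTH19 were the 2 of the 5 genes whose SA effect was lower in the brca2a triple, where 1.54% of all probe sets were called so, and the same 2 were lower in the brca2a triple after SA, where 2.87% of all were. These comparisons share the SA arrays of both genotypes. In water 0 of the 5 genes differed between the brca2a triple and the double, where 0.0747% of all probe sets were called by limma. With all 12 arrays 2 of the 5, XTH16 and XTH19, had an unadjusted p under 0.05 (0.018 and 0.036), as had 11.5% of all probe sets. Their differences in water were 0.22 and 0.27. Without double, water replicate 2 they were smaller, at 0.15 ± 0.07 and 0.17 ± 0.10 (adjusted p = 0.48 and 0.59).

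XTH19 in the ssn2 triple had intensities of 30.3 and 36.9 after SA, against 60.4, 52.3 and 43.8 after water, with both SA arrays below the 3 water arrays, as in 25.2% of all probe sets. It fell by 0.46 ± 0.12 (2 arrays against 3, adjusted p = 0.026). This call ended without ssn2 triple, SA replicate 1 (adjusted p = 0.17) or SA replicate 2 (0.063), without water replicate 1 (0.061) or water replicate 2 (0.083), and with an offset of 64 (0.063), while its direction held in all of these.

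**Figure D2:**
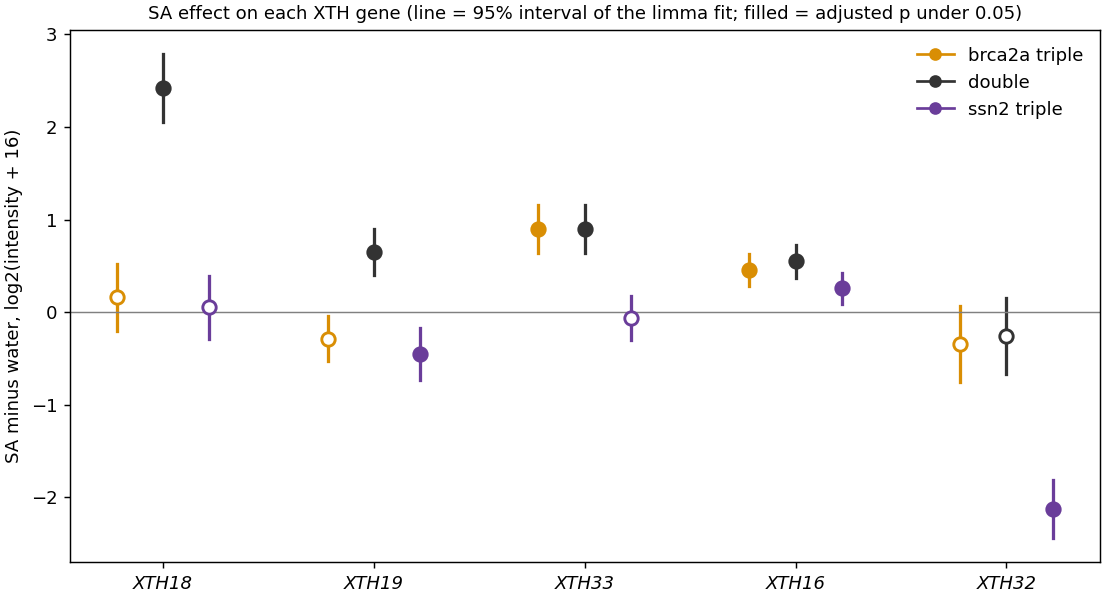
SA effect (SA minus water, log2(intensity + 16), y axis) of the 5 genes in the brca2a triple, the double and the ssn2 triple; lines are 95% intervals of the limma fit and filled points passed the adjusted p threshold. XTH18 and XTH19 have effects of 0.16 and -0.29 in the brca2a triple and of 2.42 and 0.65 in the double, XTH33 has 0.90 in each of these genotypes, and XTH32 has -2.13 in the ssn2 triple.

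XTH33 (AT1G10550, chromosome 1, probe set 263207_at) encodes a family member described at the plasma membrane. In the brca2a triple it had intensities of 65.6, 89.5 and 59.2 after SA, against 34.9, 27.7 and 28.8 after water. In the double it had 67.2, 66.5 and 73.0 after SA, against 26.3, 33.9 and 28.5 after water. All SA arrays were above the water arrays of their genotype, as in 13.4% of all probe sets in the brca2a triple and 10.4% in the double, and the genotypes overlapped within each treatment.

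XTH33 rose by 0.90 ± 0.12 in the brca2a triple (1.87-fold, adjusted p = 0.005) and by 0.90 ± 0.12 in the double (1.87-fold, adjusted p = 0.00076). Among brca2a triple effects it had the 120th largest increase and the 58th lowest p of all probe sets, against places 382 and 380 in the double. The SA effects differed by -0.00078 ± 0.16 (12 arrays, adjusted p = 1), with a 95% interval of -0.36 to 0.36. Both calls held without each of the 12 arrays in turn, with adjusted p up to 0.022 and 0.0056, and the effect in the double was 0.97 without double, water replicate 2.

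XTH33 in the ssn2 triple had intensities of 13.7 and 17.3 after SA, against 14.3, 20.7 and 15.7 after water, which overlap. The SA effect was -0.06 ± 0.10 (2 arrays against 3, adjusted p = 0.73, 95% interval -0.30 to 0.18). These values were dim, between the 26.2nd and 33.0th percentile of their arrays, against the 36.6th to 40.4th on the water arrays of the brca2a triple and the double. At such levels the offset of 16 compresses a change.

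XTH16 (AT3G23730, chromosome 3, probe set 257203_at) was the gene that rose after SA in all 3 genotypes. In the brca2a triple it had intensities of 341, 349.7 and 366 after SA, against 265, 229 and 264 after water. In the double it had 311, 313 and 337 after SA, against 213, 191 and 239.6 after water. Its ssn2 triple intensities were 215 and 244 after SA, against 188, 196 and 183 after water. SA and water arrays did not overlap in any genotype, with SA the higher (27.9% of all probe sets did so in the ssn2 triple). The 3 SA arrays of the brca2a triple also lay above the 3 of the double, as in 15.1% of all probe sets.

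The rise of XTH16 was 0.46 ± 0.08 in the brca2a triple (1.37-fold, 3 arrays against 3, adjusted p = 0.013) and 0.55 ± 0.08 in the double (1.46-fold, adjusted p = 0.0016; 0.48 without double, water replicate 2). These effects differed by -0.09 ± 0.11 (adjusted p = 0.81, 95% interval -0.34 to 0.16). The call in the brca2a triple ended without its SA replicate 3 (adjusted p = 0.053). In the ssn2 triple the rise was 0.26 ± 0.07 (2 arrays against 3, adjusted p = 0.031), and this call ended in 9 of 13 alternatives, among them median centring (0.06), without SA replicate 2 (0.12) and without water replicates 1, 2 or 3 (0.098, 0.06 and 0.079).

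Between the brca2a triple and the double XTH16 differed by 0.13 ± 0.08 after SA and by 0.22 ± 0.08 in water (adjusted p = 0.54 and 0.35), and neither difference passed.

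XTH32 (AT2G36870, chromosome 2, probe set 263841_at) belongs, with XTH31, to the branch of the family associated with xyloglucan hydrolysis. It was the gene of the 5 with the largest SA effect in the ssn2 triple, where it had intensities of 254 and 183 after SA, against 1008, 953 and 1022 after water. Both SA arrays were far below the 3 water arrays, and in 25.2% of all probe sets both SA arrays lay below the 3 water arrays. XTH32 fell by 2.13 ± 0.13 (4.37-fold lower, 2 arrays against 3, adjusted p = 9.3e-05), the 118th largest decrease of all probe sets. The call held in all 13 alternatives (adjusted p up to 0.0014), with effects between -2.35 and -1.91. Of the 3 measured root markers 1 was called lower in the same comparison, where 14.5% of all probe sets were. This was PYK10, which fell by 0.47 ± 0.05 (adjusted p = 0.00085). It had 705 and 667 after SA, against 953, 960.0 and 961 after water, and its part in the result was not tested. The root markers EXPA7 and EXPA18 had effects of 0.06 and 0.02, which did not pass (adjusted p = 0.66 and 0.91). Of the 2 measured green tissue markers LHCB4.1 was 0.26 ± 0.08 higher (adjusted p = 0.047), where 18.8% of all probe sets were called higher. That call ended in 9 of 13 alternatives, and RCA had an effect of -0.09.

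XTH32 in the brca2a triple had intensities of 612, 631 and 592 after SA, against 783, 771 and 781 after water. In the double it had 616, 571 and 592 after SA, against 873, 468 and 869.6 after water. The SA arrays lay below the water arrays throughout the brca2a triple, as in 16.9% of all probe sets. In the double they lay below water replicates 1 and 3 and above water replicate 2, the array that stood apart.

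The SA effect on XTH32 did not pass in either genotype with all 12 arrays: -0.34 ± 0.19 in the brca2a triple (3 arrays against 3, adjusted p = 0.32) and -0.25 ± 0.19 in the double (adjusted p = 0.55). Without double, water replicate 2 it was -0.34 ± 0.04 in the brca2a triple (adjusted p = 0.00042) and -0.54 ± 0.05 in the double (1.9e-05). The effect in the brca2a triple is the same in both fits, and its standard error is not, because the spread is shared by all groups: the log2 SD of the water arrays of the double was 0.50 with replicate 2 and 0.0041 without it. Fitted on its own 2 groups the brca2a triple passed (adjusted p = 0.005). The difference between the SA effects was -0.09 ± 0.26 (adjusted p = 0.94, 95% interval -0.67 to 0.49), and 0.20 ± 0.06 without the array (0.12), so it changed direction and passed in neither fit.

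**Figure D3:**
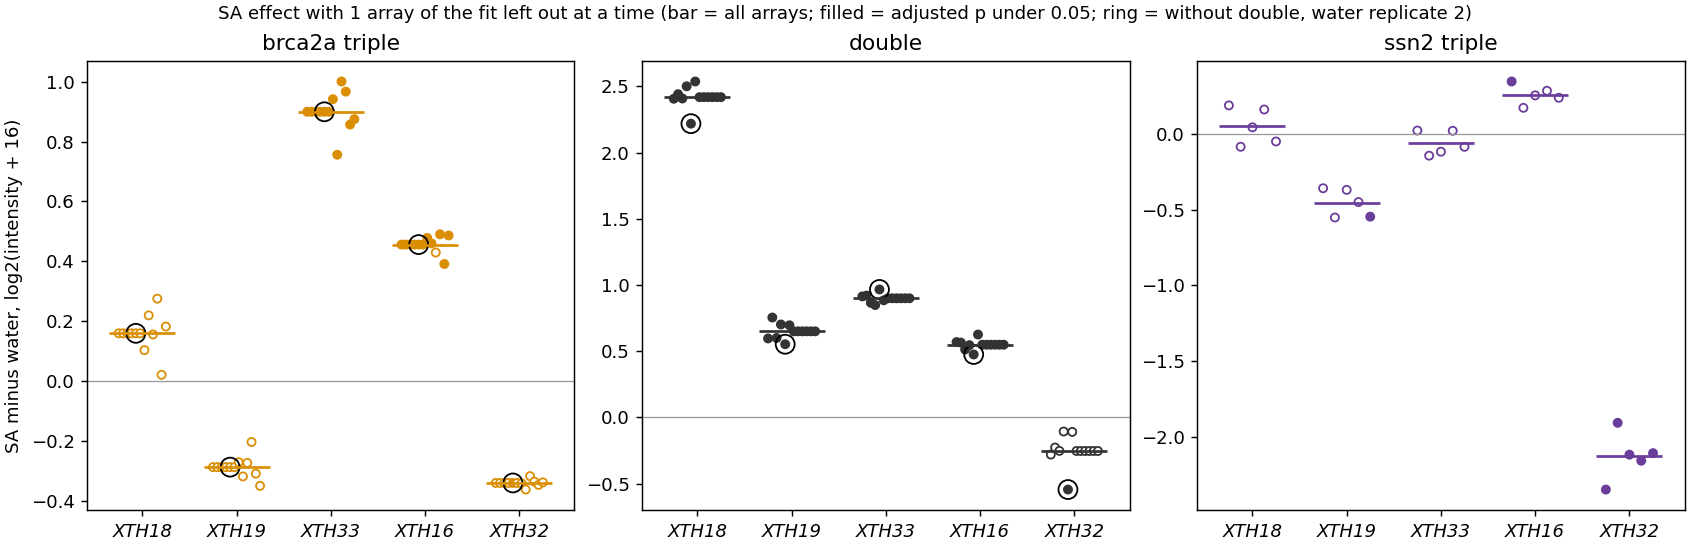
SA effect (SA minus water, log2(intensity + 16), y axis, scaled per panel) of the 5 genes with 1 array of the fit left out at a time; bars are the effects with all arrays, filled points passed the adjusted p threshold, and rings mark the fit without double, water replicate 2. In the double the ringed fit of XTH32 lies at -0.54 and is its only filled point, while XTH18 stays between 2.22 and 2.54 in every fit.

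Within the 12 arrays of the brca2a triple and the double, the order of group means differed from gene to gene. XTH18 averaged 74.4 ± 7.25 in the brca2a triple after SA, 65.6 ± 14.2 in the brca2a triple in water, 395 ± 10.9 in the double after SA and 62.2 ± 17.5 in the double in water (SD, n = 3 each), and the 3 lower groups overlapped. XTH19 averaged 46.0 ± 2.33, 59.98 ± 8.12, 83.4 ± 11.9 and 47.3 ± 7.15 in the same 4 groups (SD, n = 3 each), so that the brca2a triple after SA, its lowest group, overlapped with the double in water. XTH16 averaged 352 ± 12.7 in the brca2a triple after SA, 253 ± 20.4 in the brca2a triple in water, 320.4 ± 14.8 in the double after SA and 215 ± 24.1 in the double in water (SD, n = 3 each). Its 2 water groups overlapped, and no other neighbours in that order did.

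The genes whose profile over these 12 arrays was most like that of each member were found by Pearson correlation of log2(intensity + 16), as a description; the arrays share 4 groups and, for XTH32, the array that stood apart. Without double, water replicate 2 the same 15 correlations lay between 0.909 and 0.994. Because the genes were chosen on these 12 arrays, their SA effects and adjusted p-values there follow largely from the choice. They are not separate evidence. For XTH18 the genes most alike were AT1G66880 (0.988), AT5G52760 (0.986) and AT3G01830 (0.982). The SA effects of these 3 genes were 0.19, 0.20 and -0.20 in the brca2a triple (adjusted p = 0.29, 0.51 and 0.27), and 1.45, 3.40 and 2.70 in the double (6.5e-06, 6.2e-07 and 2.9e-07). Over the 5 ssn2 arrays, where XTH18 was dim, their correlations with it were -0.50, 0.47 and 0.82. For XTH19 the genes most alike were AT1G56660 (0.942), AT1G74450 (0.942) and AT2G25460 (0.93), with correlations of -0.64, 0.88 and -0.009 over the 5 ssn2 arrays. Their SA effects were -0.12, -0.60 and -0.07 in the brca2a triple (adjusted p = 0.61, 0.081 and 0.49), and 1.0001, 1.51 and 0.40 in the double (0.00036, 0.00033 and 0.00063).

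For XTH33 the genes most alike were AT5G46230 (0.976), AT5G42250 (0.959) and the developmental regulator gene ULT1 (0.956). These 3 rose by 0.68, 1.07 and 0.64 in the brca2a triple (adjusted p = 0.015, 0.0023 and 0.0047), and by 0.63, 1.13 and 0.39 in the double (0.01, 0.00015 and 0.013). Over the 5 ssn2 arrays, where XTH33 was dim, the correlations were 0.27, -0.41 and -0.34. For XTH32 they were ATSPS4F, a sucrose phosphate synthase gene (0.987), AT3G26450 (0.985) and AT5G21100 (0.977), and the correlations over the 5 ssn2 arrays were 0.978, 0.954 and 0.952. The correlations over the 11 arrays without double, water replicate 2 were 0.981, 0.977 and 0.98. These 3 fell in the ssn2 triple by 0.90, 1.03 and 0.81 (adjusted p = 0.0023, 6e-04 and 0.0025). Their SA effects were -0.61, -0.41 and -0.59 in the brca2a triple and -0.37, -0.40 and -0.58 in the double. None of these passed with all 12 arrays (adjusted p from 0.28 to 0.62). For XTH16 the genes most alike were AT5G22390 (0.929), AT3G51450 (0.928) and AT1G31550 (0.925), with correlations of -0.89, 0.96 and 0.91 over the 5 ssn2 arrays. AT3G51450 and AT1G31550 rose in the ssn2 triple by 0.95 and 1.14 (adjusted p = 0.00043 and 5.3e-05), while AT5G22390 fell by 1.74 (1.5e-05).

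Between the members themselves, the correlation over the 12 arrays was 0.85 for XTH18 with XTH19 and 0.87 for XTH16 with XTH33, and the other 8 pairs lay between -0.61 and 0.58. Leaving out double, water replicate 2, these 2 values were 0.83 and 0.92, while that of XTH16 with XTH32 was -0.92, against -0.31 with it, and that of XTH32 with XTH33 was -0.92, against -0.61. Over the 5 ssn2 arrays it was 0.17 for XTH18 with XTH19, where XTH18 was dim, and 0.09 for XTH16 with XTH33, which was dim there. The other 8 pairs lay between -0.95, for XTH16 with XTH32, and 0.83, for XTH19 with XTH32. For XTH32 with XTH33 the value was 0.18.

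The other 5 measured XTH genes showed no call in any of the 6 comparisons with all arrays. XTH29 was called in 3 of 12 alternatives for SA in the ssn2 triple (adjusted p = 0.16, and 0.032 to 0.05 in those 3: an offset of 1, the value table and the intensity trend). Its SA arrays lay above its water arrays there, as in 27.9% of all probe sets. The 5 are named here after their values were seen. XTH20, XTH21, XTH26 and XTH29 had group means between 7.86 and 12.3, at or below the 22.5th percentile of every array, so a change in them may lie below what the array detects. EXGT-A3 (XTH27) was bright, with 2676 ± 122.9 in the brca2a triple after SA, 2750 ± 219.6 in the brca2a triple in water, 2629 ± 58.9 in the double after SA and 2514 ± 404 in the double in water (SD, n = 3 each). The SA effects of these 5 genes lay between -0.04 and 0.03 in the brca2a triple, between 0.00055 and 0.08 in the double and between -0.14 and 0.11 in the ssn2 triple (lowest adjusted p = 0.64, 0.61 and 0.16). Without double, water replicate 2 the effects of XTH27 and XTH29 in the double were -0.06 and -0.01, so their direction turned.

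Among other cell wall genes, few had a one-gene probe set. Of 13 listed genes of xyloglucan synthesis and trimming 1 was measured, CSLC4 (CSLC04 in the annotation), which encodes a synthase of the xyloglucan backbone. It had intensities of 712, 769 and 747 in the brca2a triple after SA, against 457, 534 and 523 after water, and rose by 0.55 ± 0.11 (3 arrays against 3, adjusted p = 0.02). In the double it had 939, 921 and 926 after SA, against 489, 385 and 548 after water, and rose by 0.96 ± 0.11 (adjusted p = 0.00027; 0.82 without double, water replicate 2). The difference of -0.42 ± 0.15 did not pass (adjusted p = 0.27), and the call in the brca2a triple ended without any 1 of its arrays other than water replicate 2 (adjusted p from 0.052 to 0.075). After SA, CSLC4 differed by -0.32 ± 0.11 between the brca2a triple and the double (adjusted p = 0.16, and 0.011 without double, water replicate 2). CSLC4 in the ssn2 triple had an SA effect of 0.18 ± 0.07 (adjusted p = 0.11).

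Expansins loosen the wall without cutting its polymers, and 14 of 25 listed expansin genes were measured. In the brca2a triple 0 passed by limma (median effect -0.09), where 4.65% of all probe sets were called in either direction; without double, water replicate 2 EXLA1 was called higher and EXPB3 lower (-0.31, adjusted p = 0.047). In the double 2 rose and 0 fell (median -0.06), where 4.94% of all probe sets were called higher and 2.54% lower. EXLA1, which encodes an expansin-like protein, rose by 1.36 ± 0.21 (3 arrays against 3, adjusted p = 0.0024). EXLA3 rose by 0.32 ± 0.06 from a dim level (adjusted p = 0.0077, and 0.082 with its 2 groups fitted alone). With double, water replicate 2 left out, 3 were called higher and 2 lower: EXPA9 was added at 0.31 (adjusted p = 0.005), EXPB3 at -0.56 (0.0028) and EXPB1 at -0.26 (0.016). After SA, EXLA3 was the 1 expansin gene that differed between the brca2a triple and the double (-0.30 ± 0.06, 0.017), where 4.26% of all probe sets were called in either direction. The call of EXLA3 ended without any 1 of 4 SA arrays, replicates 1 and 2 of the brca2a triple and 2 and 3 of the double (0.067 to 0.078). EXPA16 was called higher in that comparison without double, water replicate 2 (0.40, adjusted p = 0.01). The SA effect of EXLA1 in the brca2a triple was 0.56 ± 0.21 (adjusted p = 0.16; 0.012 without double, water replicate 2), and the difference of -0.80 ± 0.30 did not pass (0.28). In the ssn2 triple 3 expansin genes rose and 5 fell (median -0.0021), where 33.2% of all probe sets were called in either direction. EXPA16 rose by 1.598 ± 0.09 (2 arrays against 3, adjusted p = 7.1e-05), while EXPB1 and EXPB3 fell by 0.98 ± 0.07 and 0.97 ± 0.05 (adjusted p = 2e-04 and 7.3e-05) and EXLA2 fell by 0.48 ± 0.10 (0.015). The call of EXLA2 ended without SA replicate 1 (0.1) or water replicate 1 (0.057).

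**Figure D4:**
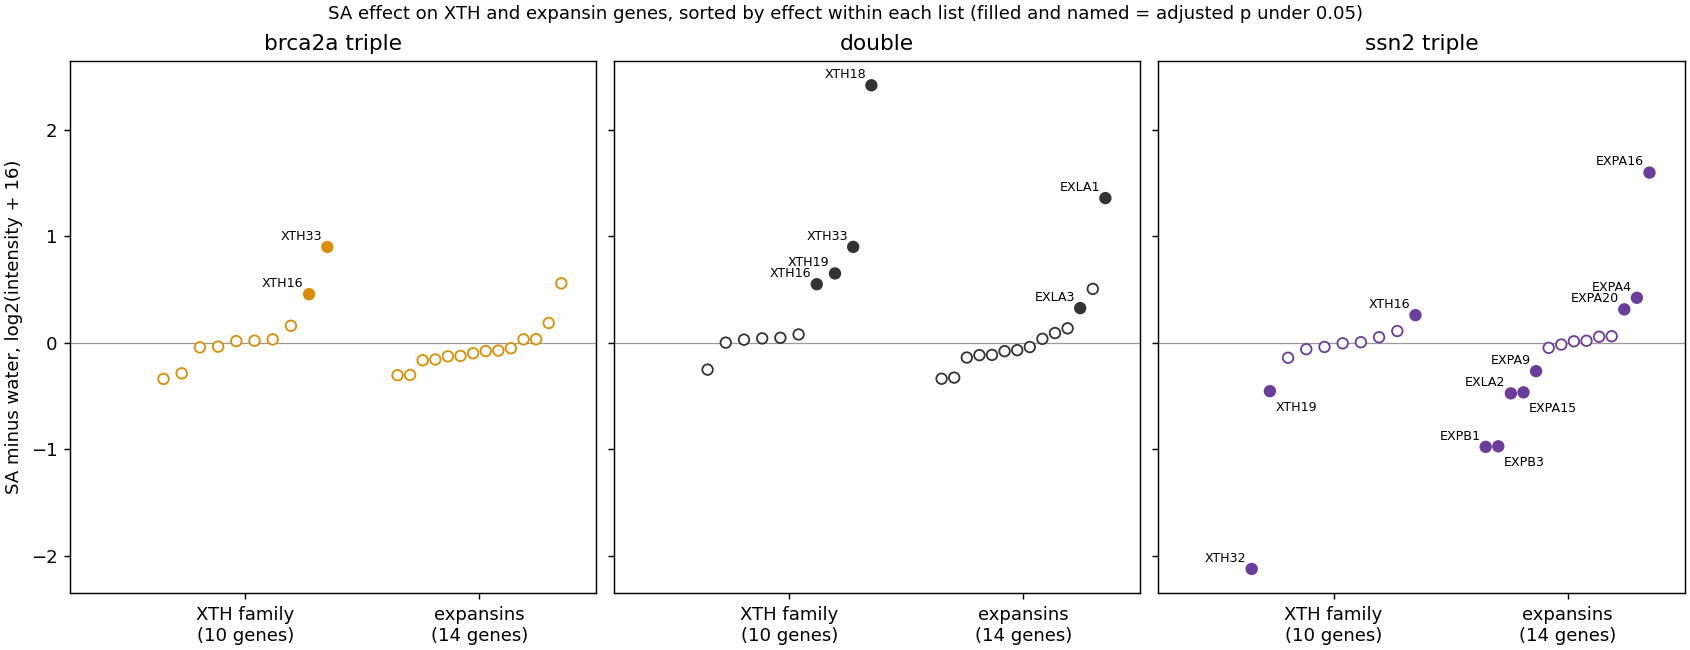
SA effect (SA minus water, log2(intensity + 16), y axis) of the 10 measured XTH genes and 14 measured expansin genes in the brca2a triple, the double and the ssn2 triple, sorted within each list; filled, named points passed the adjusted p threshold. In the double the called genes of both lists are higher after SA with all arrays (without double, water replicate 2 XTH32, EXPB1 and EXPB3 are called lower), and in the ssn2 triple 3 of the 14 expansin genes are called higher and 5 lower.

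Of 10 listed pectin genes 1 was measured, the pectin methylesterase gene PME41 (ATPMEPCRB in the annotation). Its SA effect was 0.51 ± 0.25 in the brca2a triple (adjusted p = 0.27; 0.018 without double, water replicate 2), and in the double it rose by 1.48 ± 0.25 (3 arrays against 3, adjusted p = 0.0038; 0.053 with its 2 groups fitted alone). The difference of -0.98 ± 0.35 did not pass (adjusted p = 0.26). After SA, PME41 differed by -0.85 ± 0.25 between the brca2a triple and the double (adjusted p = 0.097, and 0.0012 without double, water replicate 2). PME41 in the ssn2 triple rose by 0.30 ± 0.08 (adjusted p = 0.025), a call that ended without SA replicate 1 or 2 or water replicate 1 or 2 (0.095, 0.12, 0.086 and 0.075). The 1 measured of 13 cellulose genes, COB, which encodes a protein needed for oriented cellulose deposition, had an SA effect of 0.51 ± 0.14 in the brca2a triple (adjusted p = 0.07; called in 5 of 21 alternatives, at 0.00014 without double, water replicate 2) and of -0.06 ± 0.14 in the double (0.89; 0.14 and 0.13 without that array, so the direction turned). The difference of 0.57 ± 0.20 did not pass (adjusted p = 0.24), and without that array it was 0.36 (0.028). After SA, COB differed by 0.24 ± 0.14 between the brca2a triple and the double (adjusted p = 0.52, and 0.019 without that array). In the ssn2 triple COB rose by 0.51 ± 0.13 (adjusted p = 0.029), a call that ended without SA replicate 1 (0.17), water replicate 1 (0.089) or water replicate 2 (0.097) and with an offset of 64 (0.064).

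Of 11 auxin response genes 3 were measured. GH3.5 (WES1 in the annotation), which encodes an amido synthetase that conjugates auxin to amino acids, had an SA effect of 0.20 ± 0.08 in the brca2a triple (adjusted p = 0.17) and rose by 0.69 ± 0.08 in the double (3 arrays against 3, adjusted p = 0.00027; 0.75 without double, water replicate 2). Its difference of -0.49 ± 0.11 was at the threshold and did not pass (adjusted p = 0.051; 0.01 without double, water replicate 2; called in 5 of 20 alternatives). After SA the brca2a triple differed from the double by -0.65 ± 0.08 (adjusted p = 5e-04). The other 2 had SA effects that were larger in the brca2a triple, with differences that did not pass. IAA29, named after its values were seen, had intensities of 195, 135 and 219.7 in the brca2a triple after SA, against 44.1, 46.8 and 55.6 after water. IAA29 in the double had 117, 111 and 130.4 after SA, against 33.3, 343 and 38.8 after water. Only water replicate 2 of the double breaks the separation of SA from water in these genotypes. The SA effects of IAA29 were 1.596 ± 0.59 in the brca2a triple and 0.45 ± 0.59 in the double (adjusted p = 0.16 and 0.8), and without that array 1.596 and 1.38 (5.3e-05 and 0.00013). Its difference was 1.15 ± 0.84 (adjusted p = 0.65), and 0.22 without the array (0.705). After SA, IAA29 differed by 0.53 ± 0.59 between the brca2a triple and the double (adjusted p = 0.82, and 0.042 without the array). For GH3.3 the SA effects were 0.89 ± 0.34 in the brca2a triple and 0.33 ± 0.34 in the double (adjusted p = 0.165 and 0.711), and without the array 0.89 and 0.78 (0.01 and 0.026); the difference was 0.55 ± 0.47 (0.71), and 0.11 without it (0.91). GH3.3 rose in the ssn2 triple by 0.57 ± 0.07 (2 arrays against 3, adjusted p = 0.0013). None of the 4 touch genes and 10 brassinosteroid genes listed had a one-gene probe set. Green tissue and root markers had 0 calls by limma among the 5 measured genes in the comparisons of the 12 arrays.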

How the data were processed

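Linear probe set intensities were deposited by the authors in 2 tables (12 and 5 arrays). Per the submitters' processing notes PLIER was used, and the sources used here give neither its version nor its settings. Log2 values in the deposited series value table equalled log2 intensity, centred for every probe set on its 12-array median, to within 1.98e-06; for the ssn2 arrays the subtracted constant is of unknown origin. Its array medians lay between -0.0216 and 0.0287, its direction followed log2 intensity, and it served as an alternative only.

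Of 22810 probe sets, 64 controls were left out. The platform table paired 13513 with 1 gene and 503 with more; the 8730 it leaves out stay unnamed. Of the 13513, 13436 matched a locus of the RefSeq annotation of TAIR10.1. Group means of log2(intensity + 16) were fitted with limma 3.58.1 (lmFit, eBayes) in R 4.3.3, 1 fit for each table, with no filter on dim probe sets. The fit was tested on simulated data. Where a list gene had several probe sets, that with the highest mean was used. Sequences and promoter motifs were not analysed here.

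The members, the lists and the naming rule were chosen with earlier results of these data known. Named genes are the 5 members, list genes past the threshold (at most 4 for each list and comparison, by size), and the 3 one-gene probe sets most correlated with each member over the 12 arrays. GRX480 and WRKY53 were named as a check of the SA response. Alternatives were other offsets (1 and 64), a filter on dim probe sets (mean intensity of at least 32), median centring, quantile normalization, the value table, the groups of a comparison alone, the replicate number as a block, an intensity trend, and leaving out each array. The correlations and list counts without double, water replicate 2 were added after seeing the data. Replicates came from independent experiments per the labels' protocols. Same-numbered arrays did not deviate together (correlations from -0.33 to 0.16), so the numbers were not taken to pair the arrays. The labels do not state a scan date or slide. For the ssn2 arrays the treatment field speaks of brca2a mutants; titles and genotype entries were followed.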

Additional observations from a re-analysis of the deposited data

Results flagged for a closer look

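For 2 genes the effect of SA differed between the brca2a triple and the double by the interaction term of the limma fit. The difference was -2.26 ± 0.23 for XTH18 (12 arrays, adjusted p = 0.00051, adjusted p from 4.9e-05 to 0.003 over 20 alternatives) and -0.94 ± 0.16 for XTH19 (adjusted p = 0.01, from 0.0044 to 0.036). All 3 SA arrays of the brca2a triple lay below all 3 of the double in both genes; 10.8% of all probe sets did so.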

How the results depend on the processing

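The calls of XTH18 and XTH19 in the difference of SA effects, of all 4 genes that rose in the double and of XTH33 in the brca2a triple held in every alternative run, and that of XTH32 in the ssn2 triple in all 13. The offset set the size of dim effects: that of XTH33 in the double was 1.199 with an offset of 1, 1.23 in the value table and 0.51 with an offset of 64. Leaving out 1 array at a time gave 379 to 3495 called probe sets for SA in the brca2a triple (1057 with all), 1090 to 4464 in the double (1700), 329 to 1065 for the difference (442), 662 to 2028 between the 2 genotypes after SA (970) and 1 to 107 in water (17); the highest count was in each case without double, water replicate 2. It gave 1 to 3 called members for SA in the brca2a triple and 1 to 2 in the ssn2 triple (2 and 3 with all). With the groups fitted alone the counts were 2599 (SA in the brca2a triple), 939 (SA in the double), 2040 (genotypes after SA) and 2 (genotypes in water). In water they were 11 without dim probe sets, 11 from the value table and 7 with the intensity trend. Median centring moved the share of higher calls from 56.1% to 45.5% (SA in the brca2a triple), from 66.1% to 50.3% (SA in the double) and from 58.8% to 43.5% (genotypes in water), and moved the median of all probe sets by under 0.1.

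With the replicate number as a block, the genotypes in water had 3 calls, and XTH18 had an SA effect of -0.0504 and XTH16 one of 0.24 (adjusted p = 0.062) in the ssn2 triple; no other member's call changed. Some effects that had not passed changed sign, and passed on neither side. The difference of XTH33 was 0.0071 with an offset of 64, 0.0167 with median centring and 0.041 with quantile normalization, and -0.14 to 0.10 without single arrays; that of XTH32 was -0.23 to 0.20. Against the double after SA, XTH33 had -0.12 to 0.13. In water XTH18 had -0.13 to 0.21, XTH32 -0.16 to 0.28 and XTH33 -0.039 to 0.10 (-0.0119 with quantile normalization). In the ssn2 triple XTH18 had SA effects of -0.0854 to 0.19 and XTH33 of -0.14 to 0.0218. Why these moved was not tested. The filter on dim probe sets left XTH18 and XTH33 without a value in the ssn2 triple, and a lone SA array there is assumed to vary like the water arrays. In all, of 583 member effects under alternatives, 543 kept direction and side of the threshold.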
